A study of Arabidopsis thaliana with 12 samples.

Results

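Ethylene is sensed by a family of 5 receptors and relayed by a short chain of proteins, and the transcripts of 10 genes of this chain were followed here in Arabidopsis thaliana seedlings exposed to shade, warmth, both or neither. The genes are those of the receptors ETR1, ERS1, ETR2, ERS2 and EIN4, the kinase CTR1, the membrane protein EIN2, the transcription factor EIN3 and the F-box proteins EBF1 and EBF2. They were listed by name out of 33602 genes in the deposited table. The list is by gene name, with no threshold, but the family was selected on earlier results of these data, the log2 levels compared between the 4 groups. The differences and p-values below come from a fit over all genes and describe these 10 genes, and they are not independent evidence for singling them out. All 10 were among the 21316 genes tested, and each held between 38 and 1515 reads per library.

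All groups were whole seedlings of wild-type Columbia 0, 3 days old, with no transgene or mutation. During the 10 h light period of day 4 they stood either in white light or in shade, and under each light at either 20 or 28 °C, and they were collected when that light period ended. Each group had 3 biological replicates, that is 12 polyA libraries in all.

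Ethylene receptors sit in the membrane of the endoplasmic reticulum and signal when no ethylene is bound. In that state they keep CTR1 active, and CTR1 phosphorylates EIN2 and holds it back. When ethylene binds, receptors and CTR1 fall silent, a part of EIN2 is cut off and reaches the nucleus, and EIN3 accumulates because EBF1 and EBF2, which mark it for breakdown, are restrained. In Arabidopsis the transcripts of ERS1, ETR2, ERS2 and EBF2 are known to rise after ethylene treatment, a negative feedback, since receptors and EBF proteins dampen the response. In seedlings ethylene is known for the triple response of the dark-grown hypocotyl and for its part in hypocotyl growth in light.

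The 250 bases before the annotated start of 4 of these genes are shown because ETR2, EBF1 and EBF2 had the 3 largest differences with warmth in white light, and ETR1 is a receptor gene without a detectable one. They are from the RefSeq annotation and genome of build TAIR10.1, read 5′ to 3′ on the strand of the gene, and capitals mark ATGTAT, found on either strand. ATGTAT is one form of the core letters of sites bound by EIN3.
ETR2, chr3:8254309-8254558, plus strand: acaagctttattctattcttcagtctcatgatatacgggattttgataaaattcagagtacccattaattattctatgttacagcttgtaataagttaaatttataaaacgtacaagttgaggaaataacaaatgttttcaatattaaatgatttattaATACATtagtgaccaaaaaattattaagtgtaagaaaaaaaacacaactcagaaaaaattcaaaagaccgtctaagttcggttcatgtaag
EBF2, chr5:8797350-8797599, minus strand: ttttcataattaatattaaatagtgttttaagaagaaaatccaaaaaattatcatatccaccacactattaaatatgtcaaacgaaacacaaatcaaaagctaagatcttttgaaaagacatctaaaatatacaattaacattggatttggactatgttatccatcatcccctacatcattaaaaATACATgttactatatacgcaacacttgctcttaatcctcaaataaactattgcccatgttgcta
EBF1, chr2:10850798-10851047, minus strand: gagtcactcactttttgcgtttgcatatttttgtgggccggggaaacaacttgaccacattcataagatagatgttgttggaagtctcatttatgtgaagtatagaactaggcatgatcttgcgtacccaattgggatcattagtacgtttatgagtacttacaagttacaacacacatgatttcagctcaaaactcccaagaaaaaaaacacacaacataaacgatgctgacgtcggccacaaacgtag
ETR1, chr1:24733912-24734161, plus strand: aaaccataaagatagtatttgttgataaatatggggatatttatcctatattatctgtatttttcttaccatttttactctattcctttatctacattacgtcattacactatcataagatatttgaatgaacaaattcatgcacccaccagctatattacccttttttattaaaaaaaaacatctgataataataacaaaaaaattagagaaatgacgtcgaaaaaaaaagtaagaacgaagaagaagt
The motif searches covered both strands of the 250 bases before each of 27443 protein-coding genes. ATGTAT was in the windows of ETR2, EIN2, EIN3 and EBF2, 4 of the 10 genes, and in 23.5% of all windows. In EBF2 it lay 65 to 60 bases before the start, and in ETR2 91 to 86 bases before it. CACGTG, the G-box bound by phytochrome-interacting factors among others, was in none of the 10 and in 6.49% of all windows. GAANNTTC, a part of the heat shock element, was also in none of the 10 and in 9.55% of all windows. Such matches describe letters only, and a missing match says nothing about binding.

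Reads assigned to genes numbered 3500325 to 4481869 per library, and values are given as log2 CPM, where CPM (counts-per-million) is a read count scaled to the library total. Genes of cotyledon and leaf (RBCS1A, LHCB2.1 and LHCB1.1) and of root (PYK10, EXPA7 and SCR) were present in all libraries. Summed root markers reached 11.5 to 12.0 log2 CPM in white light 20 °C libraries and 12.3 in white light 28 °C libraries, and summed leaf markers 14.1 to 14.2 and 13.2 to 13.7. In shade the sums were 11.8 to 12.1 (20 °C) and 12.2 to 12.3 (28 °C) for root, and 13.5 to 13.7 and 12.7 to 13.5 for leaf. PYK10, at 11.51 to 12.25 log2 CPM, made up nearly all of the root sum. SCR went the other way in white light, at 5.28, 5.29 and 5.42 at 20 °C and 5.16, 5.22 and 5.16 at 28 °C. EXPA7 overlapped there, at 4.34 to 4.43 and 4.39 to 5.17. In whole seedlings a smaller share of cells of one type and less RNA per cell cannot be told apart, and the part of these shifts in the results was not tested. Shade at 20 °C replicate 3 stood apart in the seed storage markers, with SESA3 at 5.317 log2 CPM where the other 11 libraries lay at or below 1.061. White light at 28 °C replicate 3 had the highest level of 7 of the 10 genes within its group. Calls among the 10 genes that turn on either of these 2 libraries are given with and without it.

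**Figure D1:**
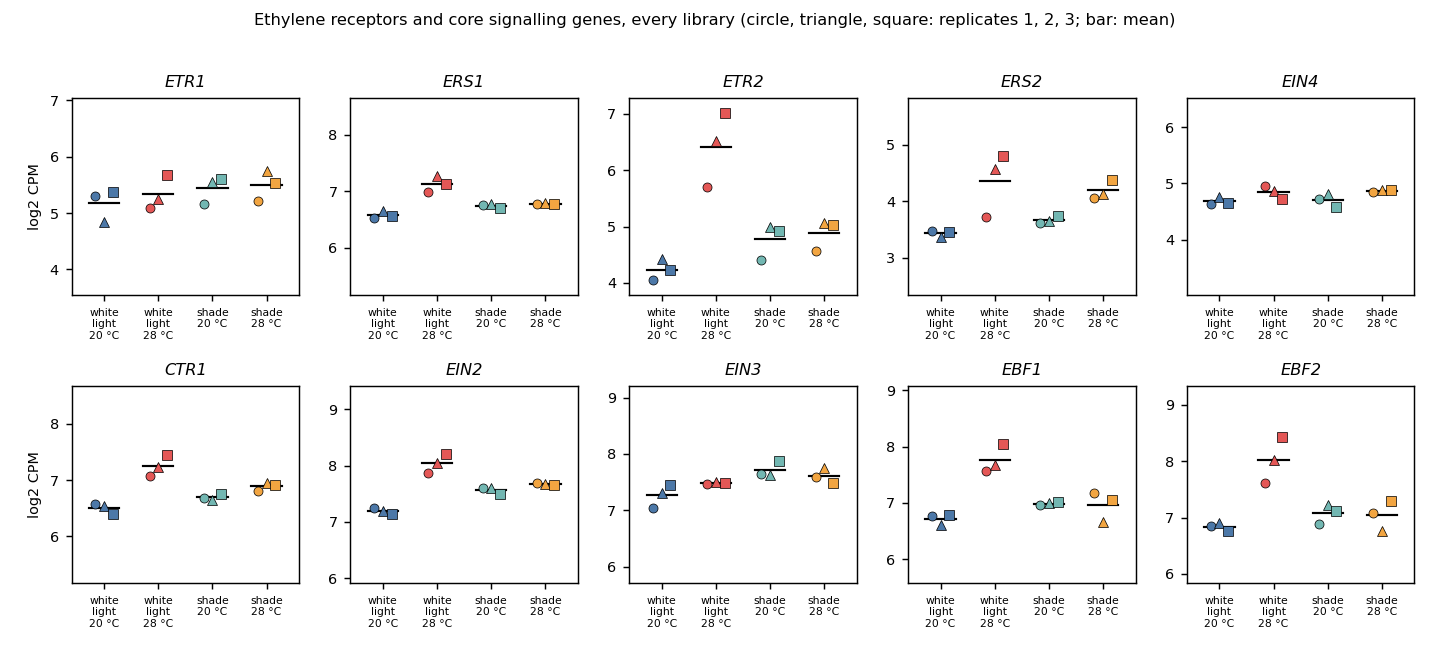
The level of each of the 10 genes in log2 CPM (y axes, each spanning 3.5 units) is plotted for every library by group (x axes), with symbols for replicate number and a bar for the group mean. In ETR2, EBF1, EBF2, EIN2, CTR1 and ERS1 the 3 libraries of white light at 28 °C lie above all other libraries, while those of ETR1 overlap in every pair of groups.

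Among the receptors, ETR2 had the largest differences. ETR2 (AT3G23150) encodes a receptor of subfamily II, the subfamily whose members lack a complete histidine kinase domain. In white light its level was 4.06, 4.42 and 4.23 log2 CPM at 20 °C, against 5.70, 6.52 and 7.01 at 28 °C. In shade the 20 °C libraries had 4.40, 4.99 and 4.92, and the 28 °C libraries 4.57, 5.06 and 5.02. The white light 28 °C libraries thus lay above the other 9, and the shade groups overlapped each other. With warmth in white light ETR2 rose 4.52-fold, a log2 difference of 2.18 ± 0.22 (limma SE, 3 libraries in each group). The limma adjusted p, over all tested genes, was 1.07e-07. Each SE of a log2 difference here comes from 1 spread shared by the 4 groups and moderated over all tested genes. In white light the SD of the ETR2 libraries was 0.66 at 28 °C and 0.18 at 20 °C. For ERS2 these SDs were 0.57 and 0.06, and for EBF2 0.41 and 0.07. Of the 10 genes only EIN3 went the other way, with 0.02 and 0.21. In shade the same step in temperature gave 0.11 ± 0.22 for ETR2, which did not pass (95% interval -0.34 to 0.57; limma adjusted p = 0.86). The difference between these effects of warmth was -2.06 ± 0.31 (interaction; limma adjusted p = 0.000726). Without white light 28 °C replicate 3 the rise was 1.88 and the interaction -1.76, and both still passed (limma adjusted p = 1.08e-06 and 0.00235).

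ERS2 (AT1G04310), also of subfamily II, had the lowest mean of the receptor genes per length in each group. In white light its levels were 3.47, 3.36 and 3.46 log2 CPM at 20 °C, against 3.72, 4.57 and 4.81 at 28 °C. Shade gave 3.61, 3.65 and 3.73 at 20 °C and 4.06, 4.13 and 4.39 at 28 °C. The 28 °C libraries were above the 20 °C libraries under either light, without overlap. With warmth in white light ERS2 rose by 0.94 ± 0.23 (limma adjusted p = 0.00638), but without white light 28 °C replicate 3 the difference was 0.71 and did not pass (limma adjusted p = 0.071). In shade its difference with warmth was 0.53 ± 0.23 and did not pass (limma adjusted p = 0.244), and the interaction of -0.41 ± 0.33 did not pass either (limma adjusted p = 0.723). EIN4 (AT3G04580), the remaining receptor of subfamily II, lay between 4.586 and 4.949 log2 CPM in all 12 libraries. No comparison passed for EIN4, and its 95% interval for warmth in white light was -0.14 to 0.46.

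The receptors of subfamily I, ETR1 and ERS1, keep a histidine kinase domain. ERS1 (AT2G40940) was the most abundant receptor transcript per length in every group. It was at 6.53, 6.65 and 6.57 log2 CPM in white light at 20 °C, at 6.99, 7.28 and 7.13 at 28 °C, and between 6.707 and 6.791 in all 6 shade libraries. The 3 white light 28 °C libraries were the highest of the 12, and the 3 white light 20 °C libraries the lowest. With warmth in white light ERS1 rose by 0.55 ± 0.10 (limma adjusted p = 0.000273), also without white light 28 °C replicate 3 (0.55; limma adjusted p = 0.00128). The interaction for ERS1 was -0.51 ± 0.14 and did not pass (limma adjusted p = 0.115). ETR1 (AT1G66340), the receptor in which ethylene binding was first shown, lay between 4.834 and 5.753 log2 CPM with all groups overlapping. Its difference with warmth in white light was 0.17 ± 0.17 (95% interval -0.19 to 0.52), or -0.0013 without white light 28 °C replicate 3, and no comparison passed. The annotation places AT1G66345 over a part of ETR1 and AT2G40935 over a part of ERS1, so reads in the shared parts are uncertain. AT1G66345 is on the same strand as ETR1, while AT2G40935 is on the strand opposite to ERS1, and the counting is not stated to use strand. AT1G66345 was at or below 2.862 log2 CPM and AT2G40935 at or below 3.097 in every library.

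**Figure D2:**
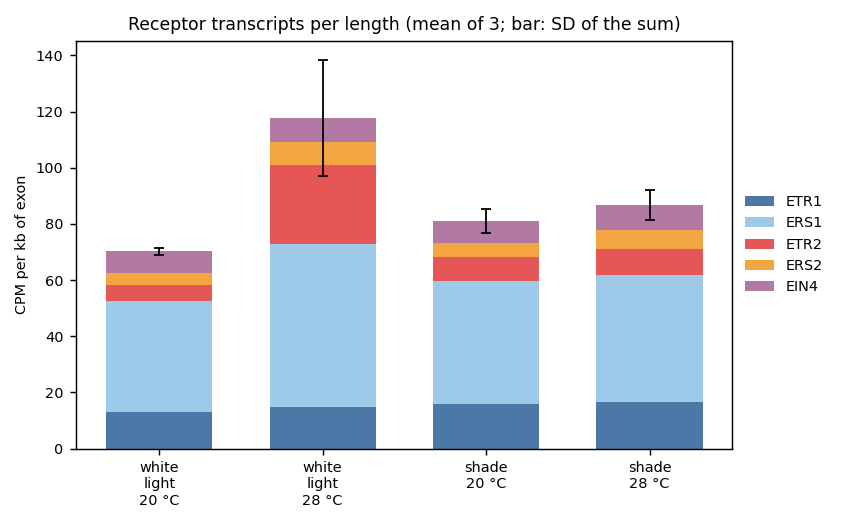
Stacked bars give the mean level of the 5 receptor transcripts per length, in CPM per kb of exon (y axis, from 0), in each group of 3 libraries (x axis), and the error bars give the SD of their sum. The sum is highest in white light at 28 °C, where the part of ETR2 is also largest.

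In CPM per kb of exon, the 5 receptor transcripts summed to 70.2 ± 1.12 in white light at 20 °C, 117.7 ± 20.5 in white light at 28 °C, 81.0 ± 4.29 in shade at 20 °C and 86.7 ± 5.28 in shade at 28 °C (SD, n = 3). The white light 28 °C libraries, at 94.8 to 134.5, were above all others, and their mean without replicate 3 was 109.4. ETR2 made up 8.28 ± 1.03% of this sum in white light 20 °C libraries, against 23.1 ± 6.36% at 28 °C, with 10.5 ± 1.70% and 10.6 ± 1.29% in shade at 20 and 28 °C. Without replicate 3 the ETR2 share in white light at 28 °C was 19.9%. The share of the subfamily I genes was 74.9 ± 1.27% in white light at 20 °C, 62.4 ± 5.75% in white light at 28 °C, 73.9 ± 1.12% in shade at 20 °C and 71.3 ± 1.41% in shade at 28 °C, and 65.4% in white light at 28 °C without replicate 3. ERS1 alone held between 42.8 and 58.8% in each of the 12 libraries. These shares describe transcripts, and exon lengths are those of the TAIR10.1 annotation.

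Downstream of the receptors, CTR1 and EIN2 rose with warmth in white light. CTR1 (AT5G03730) encodes a Raf-like kinase that represses the response. It was at 6.57, 6.54 and 6.40 log2 CPM in white light at 20 °C and at 7.07, 7.24 and 7.44 at 28 °C. Its shade libraries had 6.68, 6.64 and 6.76 at 20 °C and 6.81, 6.94 and 6.91 at 28 °C. That difference with warmth in shade, 0.20 ± 0.10, did not pass (limma adjusted p = 0.359). EIN2 (AT5G03280), the protein that carries the signal from the endoplasmic reticulum to the nucleus, had 7.24, 7.20 and 7.13 in white light 20 °C libraries, against 7.88, 8.05 and 8.20 at 28 °C. In shade EIN2 had 7.60, 7.59 and 7.50 at the lower temperature and 7.69, 7.66 and 7.65 at the higher. For EIN2 the 4 groups did not overlap, in the order white light 20 °C, shade 20 °C, shade 28 °C and white light 28 °C, and the neighbours shade 20 °C and shade 28 °C did not differ beyond the test (0.10 ± 0.09). With warmth in white light CTR1 rose by 0.75 ± 0.10 and EIN2 by 0.85 ± 0.09 (limma adjusted p = 1.25e-05 and 4.13e-07). The interaction passed for EIN2, at -0.75 ± 0.13 (limma adjusted p = 0.00483), and was -0.55 ± 0.15 for CTR1, which did not pass (limma adjusted p = 0.104) but did without white light 28 °C replicate 1 (-0.64; limma adjusted p = 0.0386). Without white light 28 °C replicate 3, EIN2 had a rise of 0.77 and an interaction of -0.67, and the rise of CTR1 was 0.65. These still passed (limma adjusted p = 4.72e-06, 0.0154 and 0.00021).

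EIN3 (AT3G20770), the transcription factor at the end of the chain, is regulated mainly through the stability of its protein, which was not measured. In white light its transcript had 7.04, 7.30 and 7.45 log2 CPM at 20 °C, against 7.46, 7.50 and 7.49 at 28 °C. The shade libraries had 7.65, 7.62 and 7.88 at the lower temperature and 7.60, 7.76 and 7.49 at the higher. The white light 20 °C libraries were the lowest, and the shade groups overlapped. EIN3 rose with shade at 20 °C by 0.45 ± 0.11 (limma adjusted p = 0.00619), and its difference with warmth in white light was 0.22 ± 0.11, which did not pass (limma adjusted p = 0.179). The shade call was lost without shade 20 °C replicate 3 (0.37; limma adjusted p = 0.0673) and without white light 20 °C replicate 1 (0.34; limma adjusted p = 0.0694).

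EBF1 and EBF2 are the F-box proteins that recognise EIN3 for breakdown. EBF1 (AT2G25490) had 6.76, 6.61 and 6.79 log2 CPM in white light 20 °C libraries, against 7.56, 7.67 and 8.05 at 28 °C, and lay between 6.670 and 7.177 in shade. EBF2 (AT5G25350) had 6.85, 6.90 and 6.76 in white light 20 °C libraries, against 7.61, 8.03 and 8.42 at 28 °C, and lay between 6.752 and 7.296 in shade. In both genes the 3 white light 28 °C libraries were above the other 9, which lay close together. EBF1 rose 2.06-fold and EBF2 2.27-fold with warmth in white light, by 1.04 ± 0.12 and 1.18 ± 0.15 on the log2 scale (limma adjusted p = 1.13e-06 and 2.3e-06). In shade the differences with warmth were -0.02 ± 0.12 and -0.03 ± 0.15 (95% intervals -0.28 to 0.23 and -0.33 to 0.27). The interaction was -1.06 ± 0.17 for EBF1 and -1.21 ± 0.21 for EBF2 (limma adjusted p = 0.00179 and 0.00314). Without white light 28 °C replicate 3 the rises were 0.90 and 0.98 and the interactions -0.92 and -1.01, and all 4 values passed (limma adjusted p = 1.21e-05, 1.89e-05, 0.00536 and 0.00711). The gene AT5G25340 lies on the opposite strand and overlaps EBF2, so their reads cannot be fully told apart. AT5G25340 was at 2.813 to 3.150 log2 CPM in white light at 20 °C, 3.555 to 5.674 at 28 °C and 3.284 to 4.178 in shade, below EBF2 in every library.

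**Figure D3:**
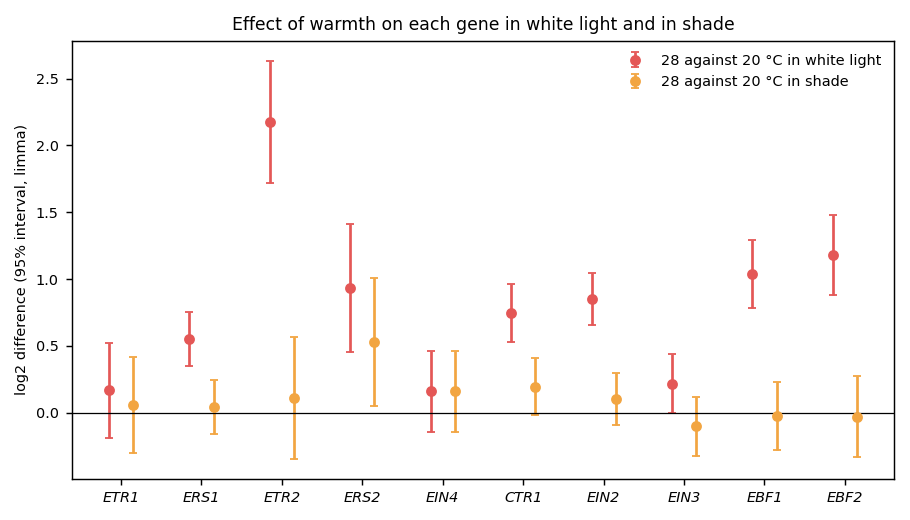
For each gene (x axis) the log2 difference between 28 and 20 °C (y axis) is shown in white light and in shade, with 95% intervals from limma (n = 3 per group). The intervals of a pair do not overlap in ETR2, EBF1, EBF2 and EIN2, where the interaction passed, nor in ERS1 and CTR1, where it did not.

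Counted over the list, warmth in white light gave 7 rises and 0 falls among the 10 genes, where 10.8% of all tested genes were called higher and 4.8% lower. The 7 were ERS1, ETR2, ERS2, CTR1, EIN2, EBF1 and EBF2. Their groups, and those of EIN3, did not overlap, which held for 23.5% of all tested genes in the rising direction. The median log2 difference of the 10 was 0.80, and that of all tested genes was 0.16. The 7 calls were the same in number after each library's median was subtracted. Warmth in shade gave 0 calls among the 10 by limma, with 1 gene, ERS2, at an unadjusted p under 0.05, where 2.19% of all genes were called higher and 1.99% lower. The median of the 10 there was 0.08, as was that of all tested genes. In shade the 28 °C libraries of ERS1, ERS2, EIN4, CTR1 and EIN2 lay above those at 20 °C without overlap, with differences of 0.04 to 0.53. The share of all tested genes without overlap was not counted for that comparison.

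The interaction, which asks whether warmth acted differently in shade and in white light, was called negative for 4 of the 10 genes and positive for 0. Among all tested genes 0.319% were called negative and 0.127% positive. The 4 were ETR2, EBF1, EBF2 and EIN2, and by size of p they ranked 16, 21, 25 and 30 among 21316 genes. All 10 estimates were below 0, and that of EIN4 was -0.00059. If shade and warmth had added up on the log2 scale, ETR2 would have been at 6.95 log2 CPM in shade at 28 °C, and it was at 4.88. For EBF1 the sum of both effects would have given 8.03, and the group mean was 6.96. For EBF2 it would have given 8.26, and the mean was 7.05. With a constant prior variance 0 of the 10 genes passed the interaction, 6 of them had an unadjusted p under 0.05, and 6 genes passed in the whole table.

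**Figure D4:**
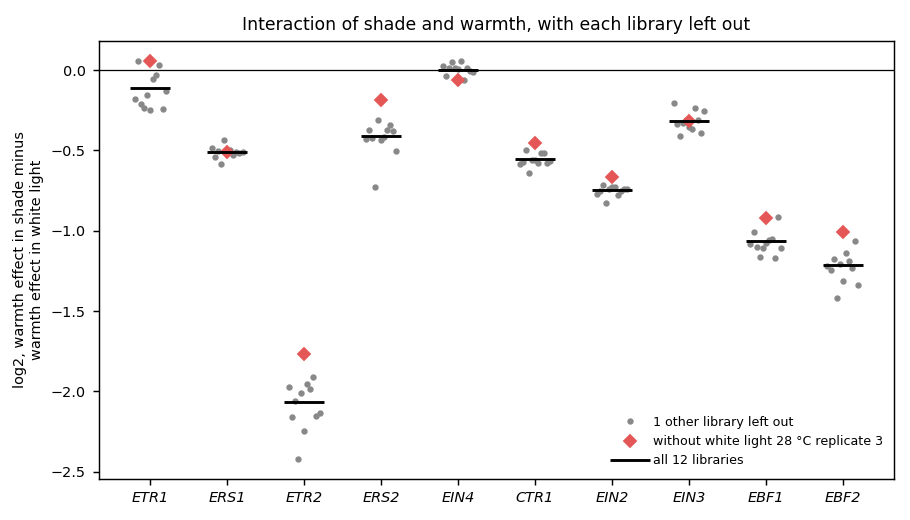
For each gene (x axis) the interaction, that is the log2 effect of warmth in shade minus that in white light (y axis), is shown with all 12 libraries as a bar and with each library left out as points. Without white light 28 °C replicate 3 (diamonds) the values of ETR2, EBF1, EBF2, EIN2, CTR1 and ERS2 are closer to 0 than with all 12, and those of ETR2, EBF1, EBF2 and EIN2 remain between -1.76 and -0.67. That of ETR1 moves from -0.11 to 0.059, also closer to 0, that of EIN4 from -0.00059 to -0.064, and those of ERS1 and EIN3 change little.

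Shade was compared with white light at each temperature. At 20 °C, 2 of the 10 genes rose and 0 fell, EIN3 as above and EIN2 by 0.37 ± 0.09 (limma adjusted p = 0.0107), where 5.43% of all tested genes were called higher and 2.66% lower. The EIN2 call was lost without white light 20 °C replicate 3 (0.34; limma adjusted p = 0.0562). Without shade 20 °C replicate 3, the library with seed storage transcripts, 1 of the 10 passed. ETR2 was 0.54 ± 0.22 higher and did not pass (limma adjusted p = 0.151). At 28 °C, 6 of the 10 genes were lower in shade and 0 higher, where 1.9% of all tested genes were called lower and 2.68% higher. ETR2 fell by 1.53 ± 0.22, EBF2 by 0.97 ± 0.15 and EBF1 by 0.80 ± 0.12 on the log2 scale (limma adjusted p = 4.78e-05, 7.26e-05 and 0.000101). The falls of EIN2 (-0.37), CTR1 (-0.36) and ERS1 (-0.35) were smaller (limma adjusted p = 0.0173, 0.0434 and 0.0364). Those 3 calls were lost without white light 28 °C replicate 3 (-0.29, -0.26 and -0.35), without white light 28 °C replicate 2, and without shade 28 °C replicate 2 or 3, each of which left 3 genes called.

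Set against white light at 20 °C, the combination of shade and warmth gave 5 rises and 0 falls, where 14.9% of all tested genes were called higher and 7.42% lower. EIN2 rose by 0.48 ± 0.09, CTR1 by 0.39 ± 0.10, ERS2 by 0.76 ± 0.23, EIN3 by 0.35 ± 0.11 and ETR2 by 0.65 ± 0.22 (limma adjusted p = 0.000428, 0.00822, 0.0188, 0.0181 and 0.0355). EBF1 and EBF2 did not pass (0.24 ± 0.12 and 0.21 ± 0.15), and EBF1 did without shade 28 °C replicate 2 (0.39; limma adjusted p = 0.0284). The median of the 10 was 0.34 and that of all tested genes 0.16. After each library's median was subtracted, 1 of the 10 genes passed, EIN2, and the same single gene passed after quantile normalization. The ETR2 call was also lost with voom weights, under the constant and the robust prior, and without any 1 of white light 20 °C replicates 1 and 3 and shade 28 °C replicates 2 and 3. ERS2 lost its call without white light 20 °C replicate 2 or shade 28 °C replicate 3, and EIN3 without white light 20 °C replicate 1 or shade 28 °C replicate 2. Shade alone against warmth alone gave 6 lower and 0 higher, where 4.39% of all tested genes were called lower and 3.46% higher. ETR2 was lower by -1.64 ± 0.22, EBF2 by -0.94 ± 0.15 and EBF1 by -0.77 ± 0.12, with ERS1, CTR1 and EIN2 the others called. ERS1 lost that call without white light 28 °C replicate 2 (-0.32) and after library medians were subtracted (-0.27). Under that scaling 5 genes were lower and 1 higher, EIN3 (0.35; limma adjusted p = 0.0389). ERS2 was called lower without white light 28 °C replicate 1 (-1.02; limma adjusted p = 0.00415). These comparisons share groups and are not independent of each other.

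Other parts of the pathway were counted from a list of 11 components, all of which were tested. With warmth in white light 3 rose and 0 fell, where 10.8 and 4.8% of all tested genes did, and the median of the list was 0.22 against 0.16 for all tested genes. ARGOS (AT3G59900) and ARL (AT2G44080) encode related proteins of organ growth that dampen ethylene signalling when overexpressed. ARL was at 4.13, 4.10 and 4.04 log2 CPM in white light at 20 °C, at 5.24, 6.16 and 6.64 at 28 °C, and between 4.060 and 5.133 in shade. Its white light 28 °C libraries were above all others. It rose by 1.93 ± 0.24 with warmth in white light and ARGOS by 1.89 ± 0.27 (limma adjusted p = 2.47e-06 and 1.25e-05). Without white light 28 °C replicate 3 these rises were 1.61 and 1.80 and still passed (limma adjusted p = 3.76e-05 and 0.000194). The interaction for ARL was -1.66 ± 0.34 (limma adjusted p = 0.0183). It did not pass without that library (-1.35; limma adjusted p = 0.0677), nor without white light 28 °C replicate 2 (-1.59), shade 20 °C replicate 3 (-1.54) or shade 28 °C replicate 3 (-1.50). RAN1 (AT5G44790), which delivers copper to the receptors, rose with warmth in white light by 0.41 ± 0.10, with shade at 20 °C by 0.46 ± 0.10 and with both by 0.54 ± 0.10 (limma adjusted p = 0.00508, 0.00259 and 0.000179). The first was 0.39 without white light 28 °C replicate 3, and the second 0.45 without shade 20 °C replicate 3, and both passed (limma adjusted p = 0.0209 and 0.0171). Shade at 20 °C gave 1 rise and 0 falls in this list (5.43 and 2.66% of all tested genes), and shade at 28 °C 0 and 1 (2.68 and 1.9%). RTH passed as a rise with shade at 28 °C without white light 28 °C replicate 3 (0.76; limma adjusted p = 0.0345). Warmth in shade gave 0 and 0 by limma (2.19 and 1.99%), with ARGOS passing without shade 28 °C replicate 3 (0.97; limma adjusted p = 0.0419). Both together gave 3 and 0 (14.9 and 7.42%), of which EIL1 lost its call without any 1 of 7 libraries. ARL passed there without white light 28 °C replicate 1 or 3 (0.61 each; limma adjusted p = 0.0252 and 0.0421) or shade 28 °C replicate 3 (0.77; limma adjusted p = 0.0468). EIL1, EIL2, EIL3, RTE1, RTH, EIN5, ETP1 and ETP2 did not pass with warmth in white light. ETP1 did without white light 28 °C replicate 3 (0.87; limma adjusted p = 0.0106), and RTE1 without white light 20 °C replicate 2 (0.91; limma adjusted p = 0.0446).

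Of 14 genes listed as responsive to ethylene 11 were tested, and ERF14, ESE1 and PDF1.2 were too low. With warmth in white light 1 rose and 0 fell, a share near the 10.8 and 4.8% of all tested genes, with a median log2 difference of 0.74 against 0.16 for all. It was HLS1 (AT4G37580), needed for the apical hook, at 1.42 ± 0.32 (limma adjusted p = 0.00261), or 1.19 without white light 28 °C replicate 3 (limma adjusted p = 0.031). The list median was the value of ESE3, 0.74 ± 0.42, which did not pass (limma adjusted p = 0.253). Above it lay, among others, genes of low level, ERF1 (2.79 ± 1.23), ORA59 (1.71 ± 1.22) and ERF2 (1.11 ± 0.82). The genes of highest level, RAV2, RAV1, TEM1 and PR4, had 0.01, -0.23, -0.28 and 0.02. Shade and warmth together gave 4 rises and 1 fall, where 14.9 and 7.42% of all tested genes were called. CHI-B (AT3G12500), a basic chitinase, rose by 1.59 ± 0.44, HLS1 by 1.15 ± 0.32, ESE3 by 1.16 ± 0.42 and RAV1 by 0.31 ± 0.11, and the RAV factor gene TEM1 fell by 0.48 ± 0.12 on the log2 scale. Leaving out single libraries ended the ESE3 call in 10 cases of 12, that of RAV1 in 7, of CHI-B in 2 (0.93 without white light 20 °C replicate 3) and of TEM1 in 1, and that of HLS1 in 0. RAV1 (AT1G13260) rose with shade at 28 °C by 0.54 ± 0.11 (limma adjusted p = 0.00312), and RAV2 (AT1G68840) fell with shade at 20 °C by 0.35 ± 0.11 (limma adjusted p = 0.0425). The RAV2 call was lost without any 1 of 6 libraries, shade 20 °C replicate 3 among them (-0.38; limma adjusted p = 0.0772). ERF1, a direct target of EIN3, had at most 0.944 log2 CPM in any library and did not pass. For the interaction 0 of the 11 passed by limma.

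Genes most like ETR2 over the 12 libraries were named by Pearson's r, as a description, with the 4 groups shared by all points. ARL came first (r = 0.97), followed by AT3G27220 (0.96), CRK29 (0.94), PAP8 (0.94) and ACX1 (0.94). AT3G27220 had group means of 2.45 and 4.90 log2 CPM in white light (20, then 28 °C) and of 3.03 and 3.47 in shade. For EBF2 they were PIF3 (0.94), AT4G33560 (0.94), AT5G19890 (0.94), AT5G20190 (0.94) and IAGLU (0.93). PIF3, which encodes a phytochrome-interacting factor, had group means of 5.52, 6.32, 5.44 and 5.57 in the same order.

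**Figure D5:**
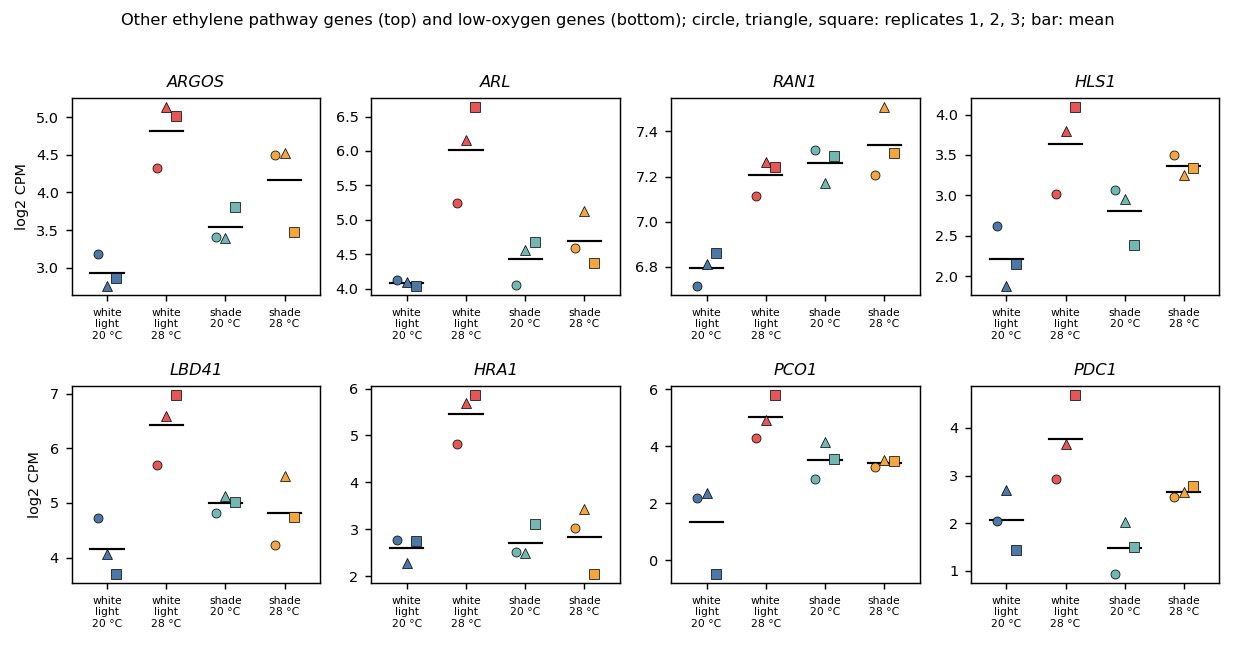
Levels in log2 CPM (y axes, each with its own range) are plotted for every library by group (x axes), with symbols for replicate number and bars for group means. In ARL, LBD41, HRA1, PCO1 and PDC1 the 3 libraries of white light at 28 °C lie above all others, while RAN1 is lowest in white light at 20 °C.

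Genes of low oxygen were also high in white light at 28 °C. A list of 6 such genes was chosen after seeing these data, so counts of calls among them are not evidence for singling them out. The 6 genes, ADH1, PDC1, LBD41, HB1, HRA1 and PCO1, are known to rise when oxygen is short. Their summed level was 4.68 to 5.53 log2 CPM in white light at 20 °C, 6.79 to 8.20 in white light at 28 °C, 5.48 to 6.05 in shade at 20 °C and 5.56 to 6.27 in shade at 28 °C. With warmth in white light 4 of the 6 rose, where 10.8% of all tested genes did, HRA1 by 2.86 ± 0.32, LBD41 by 2.26 ± 0.27, PCO1 by 3.66 ± 0.48 and PDC1 by 1.70 ± 0.42. ADH1 (0.98 ± 0.65; limma adjusted p = 0.331) and HB1 (2.76 ± 1.13; limma adjusted p = 0.0996) did not pass. HB1 passed without white light 20 °C replicate 2 (3.88; limma adjusted p = 0.0365). Without white light 28 °C replicate 3 the differences were 2.66, 1.98, 3.26 and 1.23 for HRA1, LBD41, PCO1 and PDC1, of which that of PDC1 did not pass (limma adjusted p = 0.0846). PCO1 also rose with shade at 20 °C, by 2.17 ± 0.48, and with shade and warmth together, by 2.07 ± 0.48 (limma adjusted p = 0.00373 and 0.00237), and without white light 20 °C replicate 3 by 1.25 and 1.15. LBD41 was 0.83 ± 0.27 higher with shade at 20 °C and did not pass (limma adjusted p = 0.0582). It passed without white light 20 °C replicate 1 or white light 28 °C replicate 1 or 3. It also passed without shade 28 °C replicate 1 or 2. With both together LBD41 passed without replicate 1 of white light 20 °C, white light 28 °C or shade 28 °C. Without that shade library ADH1 passed there as a fall (-1.95; limma adjusted p = 0.0421). The interaction was called negative for 3 of the 6, where 0.319% of all tested genes were. It was -2.43 ± 0.39 for LBD41, -2.74 ± 0.46 for HRA1 and -3.76 ± 0.68 for PCO1 (limma adjusted p = 0.00122, 0.00223 and 0.0054). With shade at 28 °C 3 of the 6 fell (1.9% of all tested genes), LBD41, HRA1 and ADH1. PCO1 had -1.59 ± 0.48 and did not pass (limma adjusted p = 0.0586). It passed as a fall without white light 20 °C replicate 1, 2 or 3, or without white light 28 °C replicate 1. The ADH1 call was lost without any 1 of 4 libraries, white light 28 °C replicate 3 among them (-1.52; limma adjusted p = 0.284). Within white light at 28 °C all 6 were highest in replicate 3 and lowest in replicate 1. Of the 10 ethylene genes, 7 were highest in replicate 3 and 9 lowest in replicate 1 of that group, where 34.5 and 36.4% of all tested genes were. The summed low-oxygen level of replicate 1 was 6.79, that of replicate 2 was 7.66 and that of replicate 3 was 8.20. 18S ribosomal RNA took 1.11, 0.839 and 2.30% of the reads of these 3 libraries in the same order, 0.535 to 1.67% in white light at 20 °C, 0.596 to 0.925% in shade at 20 °C and 1.25 to 2.35% in shade at 28 °C. The part of low-oxygen transcription, of ribosomal RNA or of tissue shares in the ethylene results was not tested.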

How the data were processed

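Paired-end sequencing of polyA RNA from 12 seedling samples, 3 per group, was the source of the data. The deposited file gives log2 values, which the authors made with voom's formula (log2 CPM after an offset of 0.5 read). The submitters' processing notes name TopHat2 2.1.1, SAMtools 1.3, limma, R 4.0.2 and build TAIR10, and the read counter is not given in the sources used here. Column headings that read ambient or heat were taken as 20 and 28 °C. Undoing the formula gave whole reads within 0.001 read for 100% of values.

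A gene was tested if its log2 value reached 0 in 3 or more libraries. For those 21316 genes limma 3.58.1 (R 4.3.3) fitted 1 mean per group with 1 shared spread and a trended prior. P-values carry the Benjamini-Hochberg adjustment over all of them, with a threshold of 0.05. The procedure was tested on simulated data. Alternatives changed the prior, filter, scaling, offset, weights, samples in the fit and replicate block. Libraries were not paired by replicate number in the main fit. Deviations from the group means correlated by only -0.03 to 0.041 in 18 same-numbered pairs. Taken over all tested genes, these values cannot show whether a smaller set of genes shared a batch.

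The 10 genes and the lists were chosen with earlier results of these data known, and the low-oxygen list after seeing them. For ETR2 and EBF2, the genes with the largest spans of group means, the 5 most correlated genes were named. RefSeq TAIR10.1 gave symbols, exon lengths and promoter windows, and 50 of 50 listed identifiers matched. Tables and figures were made in Python 3.11.15, with pandas 2.3.3, numpy 2.4.6 and, for drawing, matplotlib 3.10.9.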

Additional observations from a re-analysis of the deposited data

Results flagged for a closer look

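The effect of warmth differed between shade and white light, by the interaction test in limma, for ETR2 (-2.064; limma adjusted p = 0.000726), EBF2 (-1.211; limma adjusted p = 0.00314), EBF1 (-1.064; limma adjusted p = 0.00179) and EIN2 (-0.7452; limma adjusted p = 0.00483), given as the log2 effect of warmth in shade minus that in white light. In all 4 genes each white light 28 °C library was above each of the other 9 libraries. Leaving out each of the 12 libraries in turn gave -2.42 to -1.76 for ETR2, -1.42 to -1.01 for EBF2, -1.17 to -0.92 for EBF1 and -0.83 to -0.67 for EIN2, and the test passed each time. With a constant prior variance the same values did not pass (limma adjusted p = 0.253, 0.301, 0.256 and 0.23), and EBF2 did not pass with a robust prior variance (limma adjusted p = 0.0749).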

How the results depend on the processing

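Each of the 70 differences was recomputed under 22 settings, which gave 1530 values. Of these, 1434 kept their direction and their side of the threshold, 59 lost a call, 5 gained one, and 32 changed sign without a call before or after. No call reversed. Warmth in white light kept 7 calls among the 10 genes under every setting but 1, which left 6. With a constant prior variance 0 of the 10 genes passed for shade at 20 °C (main 2, with 2 at an unadjusted p under 0.05), 2 for shade at 28 °C (main 6), 2 for shade and warmth together (main 5) and 0 for the interaction (main 4, with 6 at an unadjusted p under 0.05). Quantile normalization left 1 for shade at 20 °C and 1 for both together, and subtraction of library medians left 1 for both together. Leaving out single libraries gave 1 to 2 calls for shade at 20 °C, 3 to 6 for shade at 28 °C, 3 to 5 for both together, 4 to 5 for the interaction and 5 to 7 for shade against warmth. The causes were not tested. Over all tested genes a constant prior variance gave 1950 calls in place of 3333 for warmth in white light, 919 in place of 1724 for shade at 20 °C, 357 in place of 978 for shade at 28 °C, 184 in place of 892 for warmth in shade, 802 in place of 1673 for shade against warmth and 6 in place of 95 for the interaction. Without shade 20 °C replicate 3 they numbered 1113 for shade at 20 °C and 59 for the interaction. For warmth in shade they numbered 513 and 402 without shade 20 °C replicates 1 and 2, and 457 and 533 without shade 28 °C replicates 2 and 3. For the interaction they numbered 155 without white light 28 °C replicate 1 and 61 without shade 28 °C replicate 3. The share of calls that were rises moved from 69.3 to 39.8% (medians subtracted) and 46.1% (quantile) for warmth in white light, from 66.7 to 44.5 and 47.5% for both together, from 52.4 to 25.1 and 39.4% for warmth in shade, from 44.1 to 69.3 and 55.9% for shade against warmth, and from 67.2 to 52.9% (quantile) for shade at 20 °C. With the replicate block ETR2 passed for shade at 20 °C (0.54; limma adjusted p = 0.0429), so that 3 genes were called there, and the block changed no other call among the 10. The replicate numbers were not taken to pair the samples in the main fit. The fit with only the groups compared gave no interaction. ERS2, with 38 reads in its lowest library, had the largest standard error of the 10 genes. The values of the other lists and per-length quantities without single libraries were added after seeing the data. Calls in the other lists, such as those of RAN1, EIL1 and RAV1, were not recomputed under the other priors, filters or scalings.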

Other observations

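Transcripts of the F-box genes and of their target EIN3 were set against each other per length. The ratio of EBF1 plus EBF2 to EIN3 was 1.18 ± 0.187 in white light at 20 °C, 2.23 ± 0.510 in white light at 28 °C, 1.03 ± 0.113 in shade at 20 °C and 1.10 ± 0.274 in shade at 28 °C (SD, n = 3). Its lowest value in white light at 28 °C, 1.78, was above the highest of all other libraries, 1.39, and its mean there without replicate 3 was 1.95. The ratio of EBF2 to EBF1 stayed between 0.980 and 1.35 in all 12 libraries. ETR2 was at 0.462 ± 0.157 of ETR1 per length in white light at 20 °C, 1.85 ± 0.466 in white light at 28 °C, 0.540 ± 0.0376 in shade at 20 °C and 0.561 ± 0.0367 in shade at 28 °C, and at 1.69 in white light at 28 °C without replicate 3. In the 1000 bases before the start, ATGTAT was found in 9 of the 10 genes and in 64.8% of all protein-coding genes, and CACGTG in 0 of the 10 and in 14.8% of all. GAANNTTC was in 1 of the 10, EBF1, and in 33.2% of all.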
